A study of Mus musculus with 9 samples.

Results

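The comparison described here is between T cells that carried an active form of the transcription factor NFAT2, called NFAT2-CA, and cells that carried NFAT2-CARIT, the same active form with further changes (RIT) that impair its cooperation with AP-1. It takes in 6 of the 9 RNA sequencing libraries of the series, 3 with NFAT2-CA and 3 with NFAT2-CARIT, and every gene of the deposited table. All cells were primary CD4+ T cells isolated from C57BL/6 mice and transduced with a retroviral vector, and the remaining 3 libraries came from cells given the control vector. Those 3 Control libraries share the estimate of the spread and their levels are given beside the others, but no test against them is reported. The labels do not give the time after transduction, a stimulus, a sort for transduced cells, the ages of the animals or whether replicates came from separate mice, so the p-values measure the spread between these libraries, which may be technical. RNA was measured in bulk, so fewer cells expressing a gene and less RNA of it per cell cannot be told apart.

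NFAT2, encoded by Nfatc1, is held in the cytoplasm of resting T cells by phosphorylation and enters the nucleus once the calcium-dependent phosphatase calcineurin removes the phosphates. A constitutively active form does not need that step. At many immune genes NFAT binds DNA next to AP-1, a dimer of Fos and Jun proteins made after costimulation, and both proteins hold the composite site together. NFAT that acts without AP-1 is known from studies of anergic and exhausted T cells, where it is linked to inhibitory receptors and to the NR4A and TOX factors. The contrast of NFAT2-CARIT with NFAT2-CA therefore asks which transcripts depend on contact of NFAT2 with AP-1 in CD4+ T cells.

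The deposited unit is CPM, which brings the reads of all libraries to one common total and makes no correction for gene length, so levels are compared between groups and not between genes. The smallest steps between values put the depth at 19942000 to 38185300 reads per library, so 3 reads amounted to 0.079 to 0.15 CPM (counting error only). The first principal component (80.2% of the variance) set the Control libraries apart from both NFAT2 groups, and the second (10.2%) set NFAT2-CA, at -21.1 to -18.3, apart from NFAT2-CARIT, at 17.5 to 18.3. NFAT2-CA replicate 3 stood apart on the third (3.3%). It also held more nuclear noncoding RNA: Malat1 was 1864, 1722 and 6225 CPM in the 3 NFAT2-CA libraries against 2272, 2368 and 3223 CPM with NFAT2-CARIT, and Neat1 was 177, 201 and 659 CPM against 200.4, 204 and 261 CPM. Without that library 3339 genes were called in place of 3745, so the counts of the lists below are given with and without it.

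The labelled cell type was checked against its markers. All 8 CD4 T cell markers (Cd3e, Cd3d, Cd3g, Cd4, Trac, Cd28, Lck, Cd5) were present, with a summed level of 6610 to 7050 CPM with NFAT2-CA, 6330 to 6420 CPM with NFAT2-CARIT and 5550 to 5680 CPM in Control. The 2 CD8 markers summed to 28.4 to 30.8, 22.6 to 24.0 and 12.5 to 13.7 CPM in the same order, nearly all of it Cd8b1, with Cd8a at 0.377 to 0.632, 1.35 to 2 and 0.127 to 0.5 CPM. The 3 B cell markers in the table (of 6 listed) summed to 206 to 211, 182 to 204 and 411 to 422 CPM. Only 1 of these 3, Ighm, reached 10 CPM in at least 3 libraries, so most of that sum was 1 gene. The 4 of 8 myeloid and dendritic markers reached 14.8 to 18.4, 16.4 to 20.3 and 15.8 to 17.0 CPM, and the 2 of 4 NK cell markers 2.56 to 3.12, 1.59 to 2.3 and 8.33 to 10.3 CPM. The 4 listed erythroid and platelet markers, and defining markers such as Ms4a1, Lyz2, Csf1r and Ncr1, were not among the genes of the deposited table. Their levels could therefore not be read. The part of these cells in the differences below was not tested.

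Nfatc1 itself was read in every library to check the labels. It measured 342, 336 and 395 CPM in the NFAT2-CA libraries and 240.5, 245 and 253 CPM in the NFAT2-CARIT libraries, against 224, 228 and 188 CPM in Control. All 3 NFAT2-CA libraries lay above all NFAT2-CARIT libraries, and those lay above all Control libraries (log2 fold change -0.53 ± 0.08, adjusted p = 9.2e-05 in limma, for NFAT2-CARIT minus NFAT2-CA; the value after ± is a standard error here and throughout). The sources used here do not give whether vector reads counted towards Nfatc1. Its level therefore does not measure the transgene alone, and the part of the amount of NFAT2 in the differences below was not tested.

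**Figure D1:**
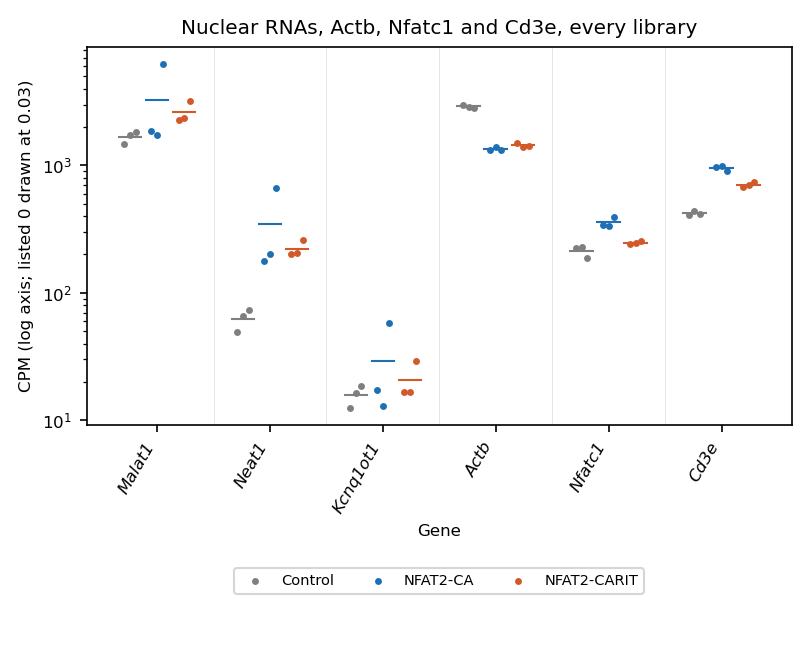
CPM (log axis) of 3 nuclear RNAs, Actb, Nfatc1 and Cd3e in every library. Points are libraries and lines are group means of 3. NFAT2-CA replicate 3 is the single high point for Malat1, Neat1 and Kcnq1ot1, while its Actb, Nfatc1 and Cd3e values lie with or near those of its group.

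Of 16500 genes in the table, 13090 (79.3%) reached 1 CPM in at least 3 of the 9 libraries and were tested with limma on log2(CPM + 1). Between NFAT2-CARIT and NFAT2-CA 3745 genes passed an adjusted p of 0.05, or 28.6% of those tested: 1553 (11.9%) were higher and 2192 (16.7%) lower with NFAT2-CARIT. This balance depended on the scaling, with 1823 higher and 1763 lower under quantile normalization. Most of these differences were small. Their median absolute log2 fold change was 0.38, and 2918 of them (77.9%) were under 1.5-fold. A change of at least 2-fold was found for 220 genes (1.68%), 71 higher (0.542%) and 149 lower (1.14%), and in all 220 the 3 libraries of one group lay entirely to one side of those of the other. Among all tested genes 44.0% showed such a separation. Where either group is near 0, the added 1 CPM makes a log2 fold change smaller than the ratio of the levels. Of the 220 genes, 115 averaged at least 10 CPM in whichever of the 2 groups was higher. With NFAT2-CARIT 31 of these were higher and 84 lower. Without NFAT2-CA replicate 3, 1416 genes were higher, 1923 lower and 202 changed at least 2-fold.

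The authors' deposited table for the same comparison, made with DESeq2, listed 468 of 16500 genes (2.84%) at a false discovery rate under 0.05, 196 higher and 272 lower, and 23 genes without a value. All 468 were also called by limma, in the same direction. Of the 220 genes with a 2-fold change, 117 were called in the authors' deposited table. Many genes described below were called by limma only. Among them were Havcr2, Tox, Foxp3, Tbx21 and Cdc6, with DESeq2 false discovery rates of 0.94, 0.29, 0.97, 0.6 and 0.8. Of the regulatory T cell list below the authors' table called 0 higher and 1 lower. Of the AP-1, BATF and IRF list it called 0 higher and 3 lower.

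**Figure D2:**
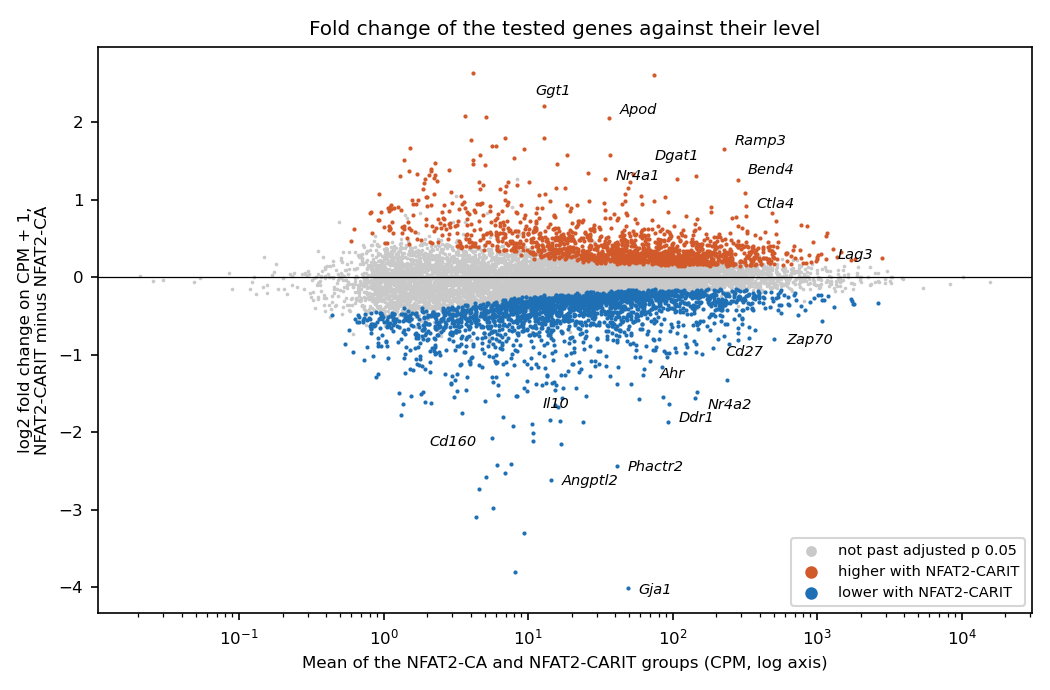
log2 fold change on CPM + 1 (vertical axis, NFAT2-CARIT minus NFAT2-CA) against the mean level of both groups (CPM, log axis) for the 13090 tested genes. Orange points passed the test and were higher with NFAT2-CARIT, blue points passed and were lower, grey points did not pass. The falls reach -4.01 at Gja1, further from 0 than any rise.

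Genes of junctions, matrix contact and receptor signalling led the falls. Gja1 encodes connexin 43, the main gap junction protein of many tissues (chr10:56377330-56402513, plus strand in mm10). It measured 98.9, 97.1 and 83.9 CPM in the NFAT2-CA libraries and 6.23, 3.62 and 4.96 CPM in the NFAT2-CARIT libraries. The groups were far apart, and the mean with NFAT2-CARIT was 18.9-fold lower (log2 fold change -4.01 ± 0.14, adjusted p = 3.5e-11). Control libraries held 0.34 to 0.441 CPM, so Gja1 was above Control with both proteins and high with NFAT2-CA.

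The promoter of Gja1 is shown because its window carries both motifs of interest. It covers the 250 bases before the RefSeq start of the gene on GRCm38.p6 (chr10:56377050-56377299, plus strand), written 5′ to 3′ on the gene's strand. Capitals mark matches to the AP-1 motif TGANTCA, which is its own reverse complement, and to the NFAT core GGAAA or its reverse complement TTTCC. No match here overlaps another.
Gja1: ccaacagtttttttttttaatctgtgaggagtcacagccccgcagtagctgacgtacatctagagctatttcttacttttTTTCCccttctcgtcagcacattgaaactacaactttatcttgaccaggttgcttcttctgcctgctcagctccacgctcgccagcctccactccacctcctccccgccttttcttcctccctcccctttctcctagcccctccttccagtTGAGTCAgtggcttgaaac
The AP-1 match TGAGTCA begins 19 bases before the start, and the single NFAT core begins 170 bases before it. These letters are a description of the window and do not show that either factor binds there. Both motifs were in 7 of 141 windows of genes at least 2-fold lower (4.96%). They were in 4 of 70 windows of genes at least 2-fold higher (5.71%) and in 2.26% of windows of tested genes.

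Angptl2, a secreted angiopoietin-like protein (chr2:33216069-33247717, plus strand), measured 24.9, 26.3 and 25.6 CPM in the NFAT2-CA libraries and 3.12, 3.65 and 3.21 CPM in the NFAT2-CARIT libraries (log2 fold change -2.62 ± 0.14, adjusted p = 2.2e-09). Ddr1, a receptor tyrosine kinase for collagen (chr17:35681567-35704621, minus strand), fell from 145, 153 and 141 to 41.7, 39.9 and 36.1 CPM (log2 fold change -1.87 ± 0.08, adjusted p = 9.4e-11). Ehbp1, a protein that links endocytosis to actin, fell from between 22.5 and 26.9 to between 6.36 and 7.57 CPM (log2 fold change -1.68 ± 0.11, adjusted p = 1.7e-08). In these genes, as in Gja1, every NFAT2-CARIT library remained above every Control library, at 0.637 to 1.51 CPM for Angptl2, 24 to 28.9 CPM for Ddr1 and 2.65 to 3.17 CPM for Ehbp1. They were thus 4 of the 12 largest falls among genes that averaged at least 20 CPM in the higher group.

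Another 7 of the 12 fell below Control. Phactr2, a regulator of phosphatase 1 and actin (chr10:13207717-13474412, minus strand), measured 68.9, 68.2 and 73.3 CPM in the NFAT2-CA libraries and 11.7, 11 and 13.7 CPM in the NFAT2-CARIT libraries, with 22.7, 21.6 and 18.1 CPM in Control (log2 fold change -2.44 ± 0.09, adjusted p = 5.2e-11). Ppp2r3a, a regulatory subunit of phosphatase 2A (chr9:101105084-101251795, minus strand), measured 89.1, 83.9 and 94 CPM in the NFAT2-CA libraries and 29.1, 29.8 and 28.6 CPM in the NFAT2-CARIT libraries, with 60.3, 61.3 and 56.9 CPM in Control (log2 fold change -1.58 ± 0.06, adjusted p = 7.3e-11). Both were highest with NFAT2-CA and lowest with NFAT2-CARIT, with no overlap among the 3 groups. Gnptab, a subunit of the enzyme that marks lysosomal hydrolases with mannose 6-phosphate (chr10:88379132-88447329, plus strand), fell from between 141 and 145 to between 39.3 and 49.4 CPM, with 55 to 62.6 CPM in Control (log2 fold change -1.64 ± 0.08, adjusted p = 6.6e-10). The same order held for Rassf4 of the Ras association domain family (20.6 to 24.7 CPM for NFAT2-CA, 5.21 to 6.07 CPM for NFAT2-CARIT; -1.84), for the coiled-coil gene Ccdc92 (26.3 to 27.1 CPM for NFAT2-CA, 6.18 to 7.01 CPM for NFAT2-CARIT; -1.86) and for Zfp862-ps (25.6 to 31.6 CPM for NFAT2-CA, 4.76 to 6.1 CPM for NFAT2-CARIT; -2.16).

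Smo differed from the others. It encodes Smoothened, the transducer of Hedgehog signals (chr6:29735503-29761365, plus strand), and its NFAT2-CA level of 25.5, 24.3 and 21.9 CPM overlapped that of Control, 24.9, 23.3 and 21.9 CPM. Only the NFAT2-CARIT libraries were apart, at 7.51, 5.77 and 7.72 CPM (log2 fold change -1.65 ± 0.10, adjusted p = 1.1e-08). Zfp568, of the KRAB zinc finger family, completes the 12, at 35.6 to 42.6 CPM for NFAT2-CA, 9.22 to 10.6 CPM for NFAT2-CARIT (log2 fold change -1.87 ± 0.12, adjusted p = 1.1e-08), with 9.25 to 13.3 CPM in Control. Reads of Zfp568 and of the pseudogene Zfp862-ps could have been split with related copies, so their values are uncertain.

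**Figure D3:**
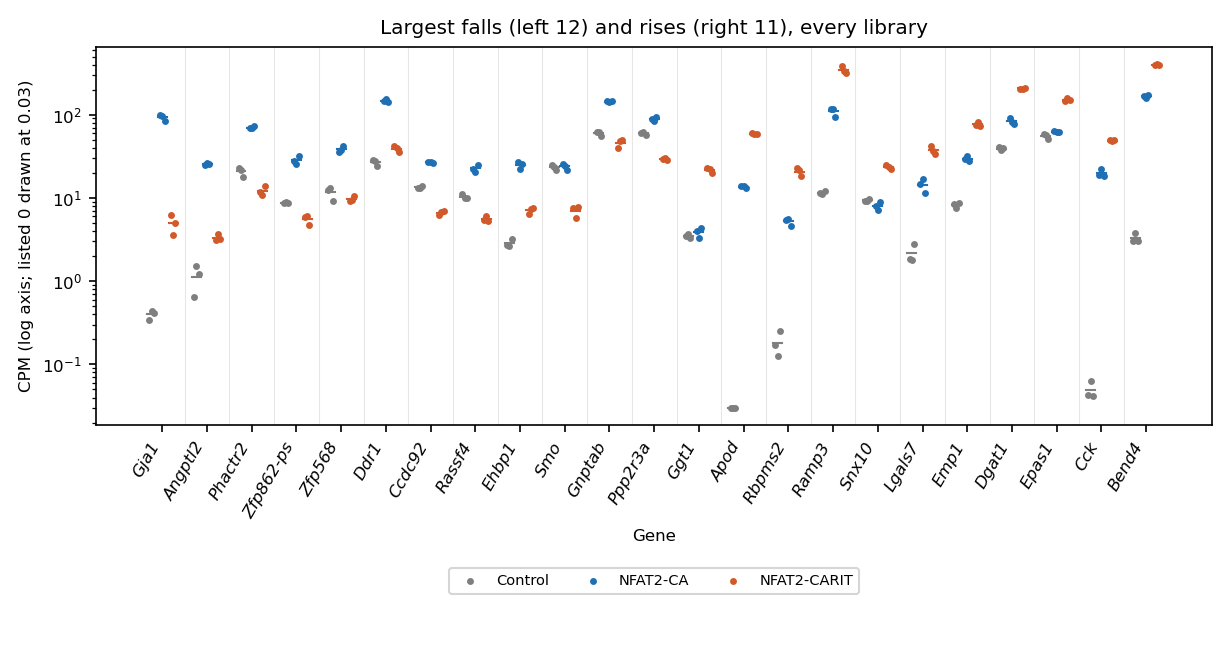
CPM (log axis) in every library for the 12 largest falls (left) and 11 of the 12 largest rises (right) of NFAT2-CARIT against NFAT2-CA. Points are libraries and lines are group means of 3. A value listed as 0 (Apod in Control) is drawn at 0.03. The blue and orange points do not overlap for any of the genes drawn, and in the rises the orange points lie above the grey ones throughout.

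In the 12 largest rises all NFAT2-CARIT libraries lay above all Control libraries in 12 of 12, and the NFAT2-CA libraries lay above Control in 10. In the 12 largest falls the NFAT2-CA libraries lay above Control in 11. Both sets were chosen for a high level in one NFAT2 group, which favours a place above Control for that group. The share of all tested genes above Control was not counted. Ggt1, the cell surface enzyme that breaks down glutathione (chr10:75561604-75586200, plus strand), measured 4.05, 3.31 and 4.34 CPM in the NFAT2-CA libraries and 23.1, 22.4 and 19.7 CPM in the NFAT2-CARIT libraries. NFAT2-CA overlapped Control (3.53, 3.72 and 3.33 CPM) and NFAT2-CARIT was 5.56-fold higher (log2 fold change 2.21 ± 0.11, adjusted p = 1.1e-09). Snx10, a sorting nexin of endosomes, was 7.12 to 8.94 CPM for NFAT2-CA, 22.4 to 25.1 CPM for NFAT2-CARIT, with 9.14 to 9.75 CPM in Control (log2 fold change 1.46 ± 0.10, adjusted p = 1.7e-08). It was the one gene of the 12 with every NFAT2-CA library below Control.

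Further rises were in genes low in Control. Apod, a lipocalin that carries small lipids (chr16:31296192-31314808, minus strand), stood at 0 in each Control library and at 13.9, 13.7 and 13.1 CPM in the NFAT2-CA libraries and 60.3, 58.6 and 59.1 CPM in the NFAT2-CARIT libraries. Its levels differed 4.38-fold without overlap (log2 fold change 2.05 ± 0.09, adjusted p = 3e-10). Cck, the peptide hormone cholecystokinin (chr9:121489824-121495694, minus strand), was 0.0425, 0.063 and 0.0417 CPM in Control, all under 3 reads, and measured 19, 22 and 18.3 CPM in the NFAT2-CA libraries and 49.6, 47.7 and 49.4 CPM in the NFAT2-CARIT libraries (log2 fold change 1.27 ± 0.10, adjusted p = 9.8e-08). Rbpms2, an RNA-binding protein, was 0.126 to 0.25 CPM in Control and 4.55 to 5.66 CPM for NFAT2-CA, 18.1 to 22.6 CPM for NFAT2-CARIT (log2 fold change 1.80 ± 0.13, adjusted p = 4.4e-08). Bend4, which encodes a BEN-domain protein (chr5:67392147-67428310, minus strand), went from 3.06, 3.81 and 3 CPM in Control to 166, 161 and 172 CPM in the NFAT2-CA libraries and 399, 404 and 391 CPM in the NFAT2-CARIT libraries (log2 fold change 1.25 ± 0.07, adjusted p = 3.1e-09). These genes were higher with NFAT2-CA than in Control and higher again with NFAT2-CARIT in every library.

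The Apod window, the counterpart of the Gja1 window among the rises, is given in the same way (chr16:31314809-31315058, minus strand on GRCm38.p6).
Apod: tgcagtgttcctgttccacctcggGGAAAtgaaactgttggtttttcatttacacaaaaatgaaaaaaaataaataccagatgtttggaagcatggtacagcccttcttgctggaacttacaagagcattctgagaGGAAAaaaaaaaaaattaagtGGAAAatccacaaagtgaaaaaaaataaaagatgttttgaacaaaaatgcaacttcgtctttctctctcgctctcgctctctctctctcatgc
It holds 3 NFAT cores, the nearest beginning 93 bases before the start, and no TGANTCA.

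Ramp3, which pairs with the calcitonin receptor-like receptor (chr11:6658521-6677475, plus strand), measured 118, 116 and 94.7 CPM in the NFAT2-CA libraries and 387, 338 and 313 CPM in the NFAT2-CARIT libraries (log2 fold change 1.65 ± 0.09, adjusted p = 4.6e-09). Emp1, an epithelial membrane protein, rose from between 28.1 and 31.5 to between 72.7 and 80.9 CPM (log2 fold change 1.33 ± 0.08, adjusted p = 4.3e-09), and Lgals7, a galectin, from between 11.5 and 16.8 to between 33.6 and 42.4 CPM (log2 fold change 1.34 ± 0.14, adjusted p = 7.5e-06). Cell contact genes therefore stood on both sides, with Gja1 and Ddr1 lower and Emp1 higher. Dgat1, which makes the last step of triglyceride synthesis (chr15:76502015-76511953, minus strand), rose from 90.2, 82.4 and 77 to 205, 205 and 209 CPM (log2 fold change 1.30 ± 0.06, adjusted p = 6.6e-10). Epas1, the hypoxia-inducible factor HIF-2 alpha (chr17:86753700-86833410, plus strand), rose from 63, 61.3 and 62.6 to 148, 158 and 151 CPM (log2 fold change 1.27 ± 0.06, adjusted p = 4.4e-10), with 51.7 to 57.9 CPM in Control.

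The NR4A family are orphan nuclear receptors induced by antigen receptor and calcium signals. Its 3 members did not move together. Nr4a1 (chr15:101254269-101274795, plus strand) measured 51.8, 58.1 and 64.7 CPM in the NFAT2-CA libraries and 116, 121 and 123 CPM in the NFAT2-CARIT libraries, and Nr4a3 (chr4:48045153-48086447, plus strand) measured 87.8, 86.8 and 99.2 CPM in the NFAT2-CA libraries and 132, 138 and 138 CPM in the NFAT2-CARIT libraries. Both were higher in all 3 NFAT2-CARIT libraries than in any NFAT2-CA library, by 1.03 ± 0.09 (adjusted p = 4.8e-07) and 0.57 ± 0.10 (adjusted p = 0.0011) on the log2 scale. Nr4a2 (chr2:57106830-57124003, minus strand) went the other way, at 227, 219 and 211 CPM in the NFAT2-CA libraries and 74.7, 77.8 and 81.1 CPM in the NFAT2-CARIT libraries, a fall with no overlap (log2 fold change -1.48 ± 0.06, adjusted p = 1e-10). In Control the values were 17.5, 16.3 and 13.6 CPM for Nr4a1, 4.29, 4.41 and 4.25 CPM for Nr4a2 and 11, 10.1 and 7.5 CPM for Nr4a3, below both NFAT2 groups in each case. The 3 members were called in the authors' deposited table too, with log2 ratios of 1.04, -1.49 and 0.57.

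Their upstream windows are printed to show how the members that moved in opposite directions differ in the same 250 bases, again with AP-1 and NFAT matches in capitals. The positions are chr15:101266596-101266845, plus strand, for Nr4a1, chr2:57124004-57124253, minus strand, for Nr4a2, and chr4:48045055-48045304, plus strand, for Nr4a3 (GRCm38.p6, RefSeq starts; for Nr4a1 this start lies within the span that the authors' file gives for the gene).
Nr4a1: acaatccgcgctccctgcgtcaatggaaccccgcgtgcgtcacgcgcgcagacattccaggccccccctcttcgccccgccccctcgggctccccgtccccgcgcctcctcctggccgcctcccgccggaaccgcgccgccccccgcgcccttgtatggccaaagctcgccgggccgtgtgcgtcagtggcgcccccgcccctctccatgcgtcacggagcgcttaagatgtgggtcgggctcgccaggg
Nr4a2: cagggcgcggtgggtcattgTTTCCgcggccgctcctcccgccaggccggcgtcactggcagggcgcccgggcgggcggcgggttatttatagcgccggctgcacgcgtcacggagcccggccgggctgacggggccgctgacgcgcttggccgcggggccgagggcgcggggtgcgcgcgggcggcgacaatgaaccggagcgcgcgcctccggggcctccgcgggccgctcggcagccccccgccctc
Nr4a3: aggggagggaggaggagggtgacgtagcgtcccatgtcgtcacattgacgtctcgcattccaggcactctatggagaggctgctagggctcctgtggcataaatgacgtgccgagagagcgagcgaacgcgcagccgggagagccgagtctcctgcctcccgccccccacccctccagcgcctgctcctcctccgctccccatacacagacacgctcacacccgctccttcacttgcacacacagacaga
The Nr4a2 window has 1 NFAT core, beginning 230 bases before the start, and the other two have none. None of the 3 windows holds TGANTCA, which says only that these letters are absent from these bases.

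The same motifs were counted in the windows of all genes with a RefSeq entry (9202 of the 13090 tested genes matched by symbol). TGANTCA was in 4.25% of the 11751 windows of tested genes. It was in 4.81% of windows of genes lower with NFAT2-CARIT and in 4.84% of those higher. Among genes changed at least 2-fold it was in 10 of 141 windows of the falls (7.09%) and 5 of 70 of the rises (7.14%). The NFAT core was in 54.0% of windows of tested genes, 53.4% of the lower genes and 51.6% of the higher ones. The share of promoter windows with an AP-1 motif was thus nearly equal in both directions. Across all 32851 windows of the table the shares were 6.75% for TGANTCA and 55.6% for the NFAT core.

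Coinhibitory receptors and the factors linked to T cell exhaustion split evenly. Of 24 genes listed 20 were tested, and 7 were higher and 7 lower with NFAT2-CARIT, with a median log2 fold change of -0.0012 beside -0.03 over all tested genes (35% and 35% against 11.9% and 16.7%; 6 and 7 without NFAT2-CA replicate 3). In these brackets, here and for the lists that follow, the first pair of percentages is the share of tested members called higher and lower, the second pair is the same over all tested genes, and the last pair is the higher and lower count without that library. Ctla4, the receptor that competes with CD28 for its ligands (chr1:60887000-60915832, plus strand), rose from 245, 245 and 215 to 398, 399.7 and 422 CPM (log2 fold change 0.79 ± 0.07, adjusted p = 9.7e-07), with 179, 186 and 218 CPM in Control. Havcr2, which encodes TIM-3 (chr11:46454935-46481255, plus strand), rose from 3.61, 2.77 and 2.49 to 6.68, 6.95 and 6.31 CPM (log2 fold change 0.96 ± 0.16, adjusted p = 0.00035), at a low level. Cd274, the PD-1 ligand PD-L1, rose from 31.7, 29.1 and 28.4 to 72.8, 71.3 and 69.6 CPM (log2 fold change 1.24 ± 0.07, adjusted p = 1.7e-09). For Cd274 the NFAT2-CA libraries lay below Control (37.5, 40.8 and 36.8 CPM) and the NFAT2-CARIT libraries above it.

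Receptors that fell included Tigit (chr16:43648867-43664146, minus strand), which binds the poliovirus receptor, at 118, 121 and 118 CPM in the NFAT2-CA libraries and 68.9, 74 and 75.9 CPM in the NFAT2-CARIT libraries (log2 fold change -0.70 ± 0.08, adjusted p = 5.6e-06). Btla, which binds the TNF receptor family member HVEM, fell from 167, 153 and 165 to 72.7, 78.7 and 93.9 CPM (log2 fold change -0.98 ± 0.08, adjusted p = 2.1e-07). Cd160, another HVEM ligand, fell from 9.22, 10.1 and 9.87 to 1.96, 1.43 and 1.3 CPM (log2 fold change -2.07 ± 0.15, adjusted p = 6.1e-08), where they overlapped Control (0.892 to 1.54 CPM). Tnfrsf14, which encodes HVEM, was lower too, at 17.6 to 23.3 CPM for NFAT2-CA, 13.8 to 15.3 CPM for NFAT2-CARIT (-0.41 ± 0.09). The genes for HVEM and for these receptors of it were thus all lower with NFAT2-CARIT.

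The ligand and receptor of the CD200 pair moved apart. Cd200 fell from 191, 186 and 181 to 113, 99.1 and 94.3 CPM (log2 fold change -0.86 ± 0.07, adjusted p = 1.2e-07) and Cd200r1 rose from 8.25, 6.66 and 7.08 to 14.2, 17.2 and 17.6 CPM (log2 fold change 1.06 ± 0.11, adjusted p = 4.7e-06). Tox, the exhaustion-associated HMG-box factor (chr4:6686353-6991557, minus strand), fell from 45.2, 46.7 and 46.3 to 29.2, 31.1 and 31.2 CPM (log2 fold change -0.58 ± 0.08, adjusted p = 6.3e-05), with 12.2 to 15.4 CPM in Control. Cd101, another inhibitory receptor gene, fell (-0.46).

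Lag3, a receptor for MHC class II, and Pdcd1, which encodes PD-1, did not pass the test. Lag3 measured 1095, 1115 and 1044 CPM in the NFAT2-CA libraries and 1233, 1184 and 1148 CPM in the NFAT2-CARIT libraries, with 62.1, 65.2 and 55.1 CPM in Control, a difference of 0.13 ± 0.06 (adjusted p = 0.14). Pdcd1 measured 11.4, 10.1 and 9.91 CPM in the NFAT2-CA libraries and 7.62, 8.4 and 8.17 CPM in the NFAT2-CARIT libraries, with 4.12, 6.52 and 6.83 CPM in Control (-0.34 ± 0.14, adjusted p = 0.084). Neither gene's groups overlapped. Both results depended on the libraries in the fit: without Control replicate 3 the adjusted p of Lag3 was 0.037, and without Control replicate 1 that of Pdcd1 was 0.022. Pdcd1lg2 (0.40), Entpd1 (-0.07), Vsir (0.07) and Tox4 (-0.13) did not pass either.

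**Figure D4:**
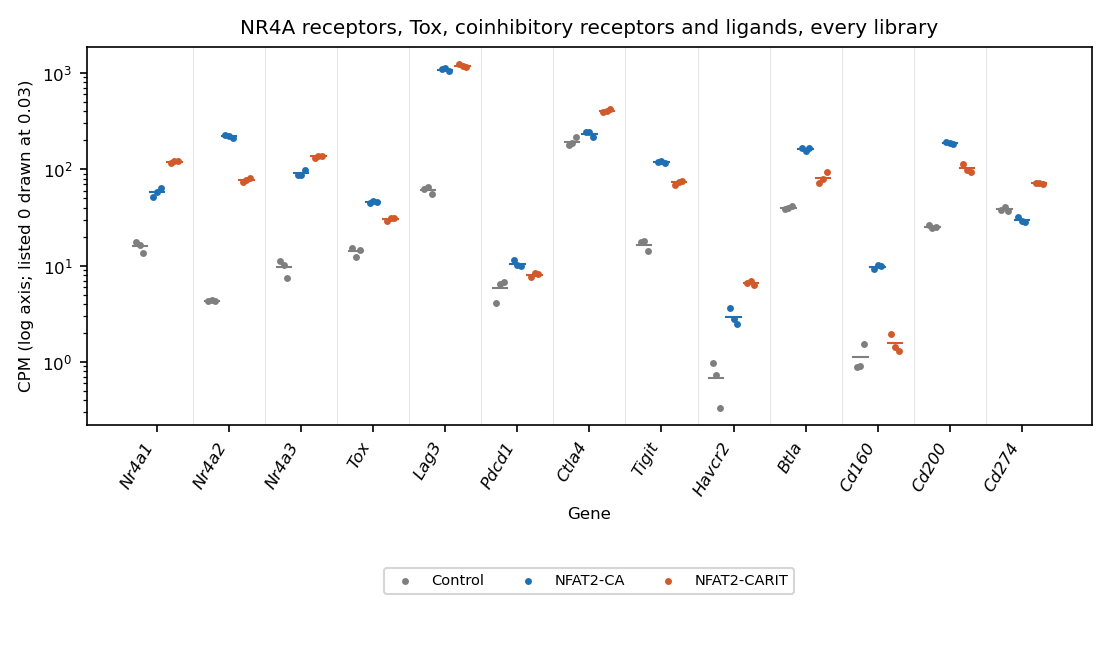
CPM (log axis) in every library for the NR4A receptors, Tox, coinhibitory receptors and the ligands Cd200 and Cd274. Points are libraries and lines are group means of 3. Nr4a1, Nr4a3, Ctla4, Havcr2 and Cd274 are highest with NFAT2-CARIT, while Nr4a2, Tox, Tigit, Btla, Cd160 and Cd200 are highest with NFAT2-CA.

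Cytokine genes are classic targets of NFAT with AP-1. Of 25 listed, 18 were in the table and 13 were tested, 1 of them passing the level filter through only 1 of the NFAT2 groups. With NFAT2-CARIT 1 was higher and 5 were lower (median -0.37; 7.69% and 38.5% against 11.9% and 16.7%; 1 and 6 without NFAT2-CA replicate 3). This median depended on the processing, at -0.43 with a pseudocount of 0.5 and -0.14 with a pseudocount of 5. With no level filter it was -0.05 over 18 members, of which 2 were higher and 5 lower. Il10, an anti-inflammatory cytokine (chr1:131019845-131024974, plus strand), fell from 32.4, 34.4 and 28.8 to 11.3, 11.8 and 10.5 CPM (log2 fold change -1.43 ± 0.11, adjusted p = 1e-07), with 1.33 to 1.86 CPM in Control. Csf1, the macrophage growth factor, fell from 14.5, 17.3 and 18.5 to 5.42, 6.29 and 5.66 CPM (log2 fold change -1.38 ± 0.14, adjusted p = 1.7e-06). Lif fell from between 19.8 and 21.5 to between 13.1 and 14.5 CPM (-0.55), and the lymphotoxin genes Lta (10.8 to 11.9 CPM for NFAT2-CA, 5.66 to 8.52 CPM for NFAT2-CARIT; -0.58) and Ltb (-0.43) fell as well. Lta with NFAT2-CARIT was also below Control (16.5 to 19.3 CPM). Tgfb1 was the one member that rose, by 0.32 ± 0.06.

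The cytokines most often used to read out NFAT with AP-1 were low or did not pass the test. Il2 was under 1 CPM in all 9 libraries (0.456, 0.043 and 0.258 CPM in the NFAT2-CA libraries and 0.351, 0.169 and 0.361 CPM in the NFAT2-CARIT libraries), as were Ifng (0.483, 0.964 and 0.801 CPM in the NFAT2-CA libraries and 0.131, 0.824 and 0.401 CPM in the NFAT2-CARIT libraries) and Csf2 (0.0372, 0.0838 and 0.126 CPM in the NFAT2-CA libraries and 0.681, 0.384 and 0.551 CPM in the NFAT2-CARIT libraries), so they were not tested. The 3 NFAT2-CA values of Csf2 were each at or under the level of 3 reads. Tnf measured 3.68, 3.56 and 3.71 CPM in the NFAT2-CA libraries and 4.01, 3.1 and 4.01 CPM in the NFAT2-CARIT libraries (0.01 ± 0.13, adjusted p = 0.96), below Control (5.44, 5.32 and 6.62 CPM) in both groups. Il4 measured 5.35, 5.66 and 5.78 CPM in the NFAT2-CA libraries and 6, 6.48 and 5.81 CPM in the NFAT2-CARIT libraries (0.10 ± 0.14, adjusted p = 0.62). Il21, a follicular helper cytokine, measured 17.3, 13.5 and 15.9 CPM in the NFAT2-CA libraries and 21.8, 18.8 and 17 CPM in the NFAT2-CARIT libraries (0.29 ± 0.13, adjusted p = 0.11), with 0.922 to 1.48 CPM in Control. A p above the threshold does not show equal levels. Of the chemokines, 3 of 12 were in the table and 1 was tested: Ccl5 rose from 8.37, 7.46 and 6.79 to 14.3, 12.6 and 12.4 CPM (log2 fold change 0.72 ± 0.11, adjusted p = 0.0001).

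Genes for AP-1 proteins and their DNA-binding partners differed as well. Of 22 tested AP-1, BATF, MAF and IRF factors 5 were higher and 8 lower (median -0.09; 22.7% and 36.4% against 11.9% and 16.7%; 5 and 8 without NFAT2-CA replicate 3). Fosb, a Fos protein, fell from 3.94, 5.66 and 5.69 to 1.6, 2.33 and 3.01 CPM (log2 fold change -0.89 ± 0.18, adjusted p = 0.0014) and Fosl2 (Fra-2) from 868, 879 and 891 to 676, 702 and 659 CPM (log2 fold change -0.37 ± 0.05, adjusted p = 9.1e-05). Both remained above Control (0.125 to 0.255 and 182 to 197 CPM). Atf3, a stress-induced bZIP factor, fell from 63.3, 56.5 and 51.6 to 35.6, 33.9 and 34.1 CPM (log2 fold change -0.71 ± 0.10, adjusted p = 5.2e-05). Jund (-0.29) and Maff (-0.33) fell by less. Irf4, a factor that binds composite sites with BATF and Jun (chr13:30749226-30766976, plus strand), fell from 217, 215 and 202 to 139.7, 136 and 134 CPM (log2 fold change -0.63 ± 0.07, adjusted p = 3.3e-06), with 30.2 to 35.5 CPM in Control. Irf8 fell as well (-0.31).

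Batf, the partner of IRF4 at such sites, moved the other way, from 35.6, 36.7 and 32.6 to 42.7, 44.7 and 42.1 CPM (log2 fold change 0.30 ± 0.07, adjusted p = 0.004). Its NFAT2-CARIT libraries overlapped Control (40.0 to 44.9 CPM) and its NFAT2-CA libraries lay below. Jdp2, a repressor of AP-1 sites, rose from between 13.1 and 15.5 to between 19.3 and 21.2 CPM (0.49), and Maf (0.48), Mafk (0.37) and Atf2 (0.28) rose as well. Fos measured 4.5, 2.47 and 3.63 CPM in the NFAT2-CA libraries and 6.34, 7.3 and 7.12 CPM in the NFAT2-CARIT libraries, and Jun 85.3, 65 and 80.9 CPM in the NFAT2-CA libraries and 61.8, 61.2 and 77.7 CPM in the NFAT2-CARIT libraries. The Fos groups did not overlap but the Control values ranged from 1.13 to 4.76 CPM, and the difference was 0.83 ± 0.31 (adjusted p = 0.074). Without Control replicate 1 the adjusted p of Fos was 0.0038, without Control replicate 2 it was 0.0094, and with the 6 NFAT2 libraries alone it was 0.0015. The Jun difference was -0.20 ± 0.38 (adjusted p = 0.75). Junb (-0.15) did not pass.

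NFAT, calcineurin and calcium entry genes had 1 higher and 5 lower of 22 tested (median -0.07; 4.55% and 22.7% against 11.9% and 16.7%; 2 and 4 without NFAT2-CA replicate 3), and 3 lower without NFAT2-CA replicate 2. The called share of 27.3% was near the 28.6% of all tested genes. Rcan1, a calcineurin inhibitor that NFAT induces (chr16:92391953-92470867, minus strand), fell from 15.2, 18.4 and 16.2 to 6.57, 7.28 and 6.71 CPM (log2 fold change -1.16 ± 0.10, adjusted p = 5.3e-07), below the Control libraries (11.2, 9.95 and 9.17 CPM). The calcium store sensor Stim2 fell from between 85.2 and 91.2 to between 56.8 and 63.9 CPM (log2 fold change -0.53 ± 0.07, adjusted p = 1.8e-05) and the channel subunit Orai1 rose from between 66.2 and 69.7 to between 89.2 and 105 CPM (log2 fold change 0.49 ± 0.06, adjusted p = 3.8e-05). Nfatc2 (-0.20) and Nfatc3 (0.09) did not pass.

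Feedback inhibitors of MAP kinases, the pathway that supplies Fos, were listed together with response genes such as Egr1. Of 14 tested members 3 were higher and 5 lower (median -0.14; 21.4% and 35.7% against 11.9% and 16.7%; 2 and 5 without NFAT2-CA replicate 3). Spry1, an inhibitor of Ras signalling, fell from 39.7, 41.4 and 39.7 to 17.4, 16.7 and 19 CPM (log2 fold change -1.14 ± 0.10, adjusted p = 3.2e-07). Dusp16, a phosphatase for JNK, fell from 194, 187 and 194 to 98.9, 101 and 94.6 CPM (log2 fold change -0.96 ± 0.07, adjusted p = 2.5e-08). Both were low in Control (4.1 to 5.57 and 13.7 to 16.1 CPM) and intermediate with NFAT2-CARIT. Ier3 (-0.72), Dusp14 (-0.71) and Dusp4 (-0.32) fell too, whereas Dusp2 (0.46) and Dusp5 (0.35) rose. Egr1 (-0.35) and Dusp6 (0.09) did not pass.

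Genes of T cell receptor signalling were changed in both directions, 8 higher and 11 lower of 36 tested (median -0.04; 22.2% and 30.6% against 11.9% and 16.7%; 7 and 11 without NFAT2-CA replicate 3); the higher count was 5 without NFAT2-CA replicate 2 or without NFAT2-CARIT replicate 2. The CD3 chains fell: Cd3e from 969, 979.9 and 901 to 674, 707 and 736 CPM (-0.43), Cd3g from 860.3, 891 and 832 to 602, 623 and 615 CPM (-0.49) and Cd3d from between 755 and 829 to between 623 and 662 CPM (-0.30). Without NFAT2-CA replicate 2 the adjusted p of Cd3d was 0.055. These 3 chains were the lower members of the 8 CD4 markers, and Cd5 was the 1 higher member (0.15 ± 0.05, adjusted p = 0.033), a call that was lost when any one of the 6 NFAT2 libraries was left out. Zap70, the kinase recruited to CD3 (chr1:36761798-36782818, plus strand), fell from 643, 674 and 598 to 381, 364 and 349.9 CPM (log2 fold change -0.80 ± 0.06, adjusted p = 5.5e-08), with 240.4 to 249.8 CPM in Control. Ubash3b, a phosphatase that acts on ZAP70, fell from between 63.7 and 70.3 to between 34.5 and 36.5 CPM (log2 fold change -0.87 ± 0.06, adjusted p = 3.9e-08), and Fyn (-0.42) and Prkcq (-0.34) fell by less.

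Txk, a kinase of the TEC family, rose from 28.1, 30.2 and 32.4 to 62.1, 68.6 and 74.4 CPM (log2 fold change 1.15 ± 0.08, adjusted p = 2.7e-08), with Control at 50.2 to 57.6 CPM, above NFAT2-CA. Cd69, an early activation marker, rose from between 31.9 and 40.7 to between 52.2 and 54.4 CPM (log2 fold change 0.58 ± 0.10, adjusted p = 0.00033). Cd4 (1554 to 1661 CPM for NFAT2-CA, 1609.6 to 1698 CPM for NFAT2-CARIT; 0.04), Cd28 (0.01) and Lck (0.13) did not pass. Cd8a (0.377 to 0.632 CPM for NFAT2-CA, 1.35 to 2 CPM for NFAT2-CARIT) was under 1 CPM in all Control and NFAT2-CA libraries and was tested only because NFAT2-CARIT, where it was high, passed the level filter. Among the few other tested markers of other cells, Itgam (0.632 to 0.796 CPM for NFAT2-CA, 0.916 to 1.7 CPM for NFAT2-CARIT) and Cd68 (5.57 to 5.95 CPM for NFAT2-CA, 7.23 to 8.81 CPM for NFAT2-CARIT) were higher with NFAT2-CARIT and Cd8b1 (27.8 to 30.5 CPM for NFAT2-CA, 20.7 to 22.3 CPM for NFAT2-CARIT), H2-Eb1 (8.6 to 11.8 CPM for NFAT2-CA, 6.89 to 8.82 CPM for NFAT2-CARIT) and Eomes (2.3 to 2.78 CPM for NFAT2-CA, 1.32 to 1.65 CPM for NFAT2-CARIT) were lower. The calls of Itgam (adjusted p = 0.045) and H2-Eb1 (adjusted p = 0.037) were lost without NFAT2-CA replicate 1, among other libraries, at adjusted p = 0.12 and 0.13. Of 2 tested B cell markers 0 were called in the limma test, and 1 was lower at an unadjusted p under 0.05.

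Anergy genes had 4 higher and 6 lower of 24 tested (median -0.08; 16.7% and 25% against 11.9% and 16.7%; 4 and 5 without NFAT2-CA replicate 3), with 3 lower when NFAT2-CA replicate 2 or NFAT2-CARIT replicate 2 was left out. Egr2, which is induced in anergy, was low at 0.744, 0.587 and 1.1 CPM in the NFAT2-CA libraries and 0.524, 0.686 and 0.952 CPM in the NFAT2-CARIT libraries and did not pass (-0.07 ± 0.17, adjusted p = 0.81). Nab1, a corepressor of EGR factors, fell from 183, 183 and 178 to 99.8, 104 and 103 CPM (log2 fold change -0.82 ± 0.05, adjusted p = 1.2e-08). Nrp1, the semaphorin coreceptor neuropilin 1, fell from 24.6, 27.7 and 28 to 9.5, 11.5 and 11.9 CPM (log2 fold change -1.22 ± 0.11, adjusted p = 4.1e-07). Lgals3, galectin-3, rose from between 38.9 and 45.2 to between 69.4 and 71.9 CPM (log2 fold change 0.70 ± 0.07, adjusted p = 1.8e-06).

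Of 15 regulatory T cell genes tested, 1 of which passed the level filter through only 1 NFAT2 group, 2 were higher and 7 lower (median -0.09; 13.3% and 46.7% against 11.9% and 16.7%; 2 and 5 without NFAT2-CA replicate 3). The lower count was 4 without NFAT2-CA replicate 2. Foxp3, the lineage factor of regulatory T cells (chrX:7573644-7595245, plus strand), was low and fell from 8.24, 7.04 and 6.53 to 3.78, 3.76 and 4.68 CPM (log2 fold change -0.71 ± 0.12, adjusted p = 0.00048), with 5.98, 5.46 and 6.38 CPM in Control. Gpr83 (2.68 to 3.84 CPM for NFAT2-CA, 1.49 to 2.2 CPM for NFAT2-CARIT; -0.54) and Ccr8 (-0.47) also fell. Ikzf2, which encodes Helios, rose from 15.2, 14.1 and 18.8 to 22.9, 24.8 and 25.8 CPM (log2 fold change 0.59 ± 0.11, adjusted p = 0.0011), and Il2ra (-0.08) did not pass.

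Lineage factors moved in opposite directions between helper programs. Of 19 Th1 and cytotoxic genes tested 5 were higher and 8 lower (median -0.04; 26.3% and 42.1% against 11.9% and 16.7%; 5 and 8 without NFAT2-CA replicate 3). Tbx21, which encodes T-bet, fell from 69, 70.1 and 72.1 to 56.6, 58 and 52.7 CPM (log2 fold change -0.33 ± 0.06, adjusted p = 0.0011), with 72 to 82.6 CPM in Control. Cxcr3, a chemokine receptor gene that T-bet activates (chrX:101731535-101734269, minus strand), fell from 12.2, 16.4 and 16 to 4.71, 4.26 and 5.11 CPM (log2 fold change -1.47 ± 0.10, adjusted p = 2.3e-08), having been 144 to 147 CPM in Control. Nkg7, a cytotoxic granule protein (chr7:43437073-43438249, plus strand), fell from 115, 121 and 114 to 52.8, 48 and 53.6 CPM (log2 fold change -1.17 ± 0.07, adjusted p = 7.3e-09), with 8.8 to 10.2 CPM in Control. Cxcr3 was thus highest in Control and lowest with NFAT2-CARIT, and Nkg7 was highest with NFAT2-CA. Hlx (-0.91), Prf1 (-0.56) and Eomes (-0.50) fell, and Zeb2 (9.51 to 11.7 CPM for NFAT2-CA, 19.2 to 20.1 CPM for NFAT2-CARIT; 0.81), Stat4 (0.37) and the IL-18 receptor genes Il18r1 (0.68) and Il18rap (0.75) rose. The Il18r1 call (adjusted p = 0.013) was lost without NFAT2-CA replicate 2 (adjusted p = 0.053) and without NFAT2-CARIT replicate 2 (adjusted p = 0.051).

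Of 8 Th2 genes tested 0 were higher and 4 lower in the limma test (median -0.12; 0% and 50% against 11.9% and 16.7%; 0 and 3 without NFAT2-CA replicate 3). At an unadjusted p under 0.05 the higher count was 0 too, as it was in the authors' deposited table, which called 2 lower. Gata3, the Th2 lineage factor, fell from between 347 and 365 to between 261 and 267 CPM (log2 fold change -0.43 ± 0.06, adjusted p = 3.3e-05), Nfil3 from between 257 and 292 to between 199.9 and 209 CPM (-0.42) and Ccr4 from between 42.6 and 44.6 to between 32.4 and 37.1 CPM (-0.32). The Stat6 difference was small (-0.16 ± 0.05, adjusted p = 0.032) and was not called when any one of the 6 NFAT2 libraries was left out. Of 6 Th17 genes tested 2 were higher and 1 lower (median 0.19; 33.3% and 16.7% against 11.9% and 16.7%; 2 and 1 without NFAT2-CA replicate 3). The lower one was Ahr, the aryl hydrocarbon receptor (chr12:35497974-35535038, minus strand), which fell from 96.9, 93.2 and 94.7 to 45.2, 42.5 and 45.2 CPM (log2 fold change -1.08 ± 0.09, adjusted p = 1.6e-07). In Control Ahr was 2.08 to 2.93 CPM, below both NFAT2 groups.

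Of 13 follicular helper genes tested 3 were higher and 5 lower (median -0.21; 23.1% and 38.5% against 11.9% and 16.7%; 3 and 4 without NFAT2-CA replicate 3), with 3 lower without NFAT2-CARIT replicate 1. Bcl6, the lineage factor of follicular helper cells (chr16:23965052-23988852, minus strand), rose from 66.9, 66.9 and 64.4 to 117, 119 and 121 CPM (log2 fold change 0.84 ± 0.06, adjusted p = 2.7e-08). Maf (0.48) and the costimulatory receptor Icos (0.46) rose with it. Cd40lg, the CD40 ligand gene through which these cells help B cells, fell from 73.4, 75.8 and 73.2 to 47.4, 51.6 and 46.3 CPM (log2 fold change -0.61 ± 0.06, adjusted p = 2.8e-06), as did the low Pou2af1 (2.64 to 3.29 CPM for NFAT2-CA, 0.681 to 0.802 CPM for NFAT2-CARIT; -1.15).

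Genes of naive and memory T cells had 6 higher and 5 lower of 22 tested (median 0.12; 27.3% and 22.7% against 11.9% and 16.7%; 6 and 4 without NFAT2-CA replicate 3). Tcf7, which encodes TCF-1 and marks naive and stem-like T cells (chr11:52252371-52283331, minus strand), rose slightly from 918, 929.7 and 912 to 1049, 1062 and 1074 CPM (log2 fold change 0.21 ± 0.05, adjusted p = 0.007), while Control was higher than both at 1557, 1557 and 1458 CPM. Klf2 (0.34), Il7r (0.30) and Ccr7 (0.29) rose. Cd27, a costimulatory TNF receptor (chr6:125232622-125237010, minus strand), fell from 249, 254 and 247 to 128, 139.9 and 129.9 CPM (log2 fold change -0.91 ± 0.05, adjusted p = 4.9e-09), having been 386 to 389.6 CPM in Control. The survival gene Bcl2 fell from between 119 and 121 to between 83 and 90.2 CPM (-0.45) and Ly6c1 from between 19.6 and 23.5 to between 13.5 and 16 CPM (-0.54). Cd27, Bcl2 and Ly6c1 therefore lay furthest from Control with NFAT2-CARIT, and Tcf7 furthest with NFAT2-CA.

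The TNF superfamily had 6 higher and 7 lower of 21 tested members (median -0.08; 28.6% and 33.3% against 11.9% and 16.7%; 6 and 8 without NFAT2-CA replicate 3). For 2 of the 21 members, only 1 group, an NFAT2 group, had all 3 libraries at 1 CPM or more. The ligand Tnfsf14 (LIGHT, another partner of HVEM; chr17:57189492-57194177, minus strand) fell from 12, 15 and 12.2 to 2.23, 2.47 and 3.46 CPM (log2 fold change -1.93 ± 0.14, adjusted p = 4.8e-08), and Tnfsf8 (CD30 ligand) from 136, 144 and 142 to 66.2, 71.6 and 76.2 CPM (log2 fold change -0.97 ± 0.07, adjusted p = 2.4e-08). The ligand Tnfsf4 (OX40 ligand) rose from 1.04, 0.838 and 1.39 to 3.27, 3.73 and 3.16 CPM (log2 fold change 1.08 ± 0.16, adjusted p = 0.00012). Among receptors, Tnfrsf1b (TNF receptor 2) rose from 128, 133 and 133 to 238, 241 and 229 CPM (log2 fold change 0.84 ± 0.07, adjusted p = 3.2e-07). Tnfrsf21, which passed the level filter only through NFAT2-CARIT, was at 0.377 to 0.464 CPM for NFAT2-CA, 1.07 to 2.2 CPM for NFAT2-CARIT (0.90). Tnfrsf9 (-0.08) and Tnfrsf18 (-0.08), often induced by activation, did not pass.

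Cytokine receptors had 11 higher and 4 lower of 24 tested (median 0.09; 45.8% and 16.7% against 11.9% and 16.7%; 10 and 3 without NFAT2-CA replicate 3). The lower count was 2 without NFAT2-CA replicate 2 or without NFAT2-CARIT replicate 1. Il2rg, the common gamma chain (0.31), Tgfbr2 (0.31) and Il12rb2 (0.35) rose. Tgfbr3 fell from between 50.7 and 52.5 to between 29.8 and 31.2 CPM (log2 fold change -0.74 ± 0.07, adjusted p = 6.6e-07) and Il12rb1, the other chain of the IL-12 receptor, from between 49.6 and 56.3 to between 36.8 and 42.8 CPM (-0.42). JAK, STAT and SOCS genes had 5 higher and 6 lower of 21 (median 0.03; 23.8% and 28.6% against 11.9% and 16.7%; 3 and 5 without NFAT2-CA replicate 3), and these counts moved with single libraries: leaving out NFAT2-CA replicate 2 gave 2 lower, and leaving out replicate 1 of either NFAT2 group gave 3 lower. There were 3 higher when replicate 2 or 3 of NFAT2-CA or replicate 2 of NFAT2-CARIT was left out. The feedback inhibitors Socs1 (21.2 to 26.7 CPM for NFAT2-CA, 14.2 to 15.7 CPM for NFAT2-CARIT; -0.63) and Socs2 (20.3 to 22.4 CPM for NFAT2-CA, 31 to 33.2 CPM for NFAT2-CARIT; 0.56) moved apart, and the kinase Pim1 rose (0.52).

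Of 28 chemokine receptor, adhesion and egress genes tested 10 were higher and 8 lower (median 0.07; 35.7% and 28.6% against 11.9% and 16.7%; 9 and 6 without NFAT2-CA replicate 3), with 5 lower without NFAT2-CARIT replicate 1. Integrin genes were among the rises: Itga4 went from 125, 113 and 148 to 219, 237 and 269 CPM (log2 fold change 0.91 ± 0.09, adjusted p = 4.6e-06) and Itgb3 from 257, 270.1 and 269 to 383, 404 and 394 CPM (log2 fold change 0.57 ± 0.06, adjusted p = 1.9e-06). Itga6 (0.39) and Itgb2 (0.26) also rose. Among G protein coupled receptors the oxysterol receptor Gpr183 fell from 10.2, 11 and 10.9 to 4.79, 4.56 and 4.66 CPM (log2 fold change -1.04 ± 0.10, adjusted p = 1.6e-06), and Cxcr4 by less (-0.24).

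Most glucose metabolism and hypoxia genes were lower with NFAT2-CARIT: 20 of 30 tested fell (66.7%, against 16.7% of all tested genes) and 1 rose, with a median log2 fold change of -0.29. The authors' deposited table called 15 of the 30 lower and 0 higher. Without NFAT2-CA replicate 3, 21 fell and 1 rose, and without NFAT2-CARIT replicate 3, 2 rose. No member changed 2-fold. Hk2, the inducible hexokinase (chr6:82725025-82774454, minus strand), fell from 241, 240.5 and 219 to 144, 166 and 155 CPM (log2 fold change -0.59 ± 0.08, adjusted p = 5.8e-05), with 165 to 206 CPM in Control. The glucose transporter Slc2a1 fell from between 246 and 263 to between 198 and 208 CPM (-0.32) and Pfkfb3 from between 489 and 502 to between 375 and 379 CPM (-0.39). Further glycolytic enzymes that fell were Pfkm (-0.43), Pgam1 (-0.35), Eno1 (-0.32), Tpi1 (-0.32), Pkm (-0.28) and Gapdh (-0.25).

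Hypoxia-responsive genes of the list fell too. Egln3, a prolyl hydroxylase that acts on HIF, fell from 370.4, 356 and 319 to 219, 230.1 and 214 CPM (log2 fold change -0.65 ± 0.07, adjusted p = 2e-06), Ankrd37 from between 31 and 35.3 to between 19.9 and 24.4 CPM (log2 fold change -0.60 ± 0.08, adjusted p = 7.5e-05) and Bnip3 from between 132 and 158 to between 104 and 105 CPM (log2 fold change -0.47 ± 0.08, adjusted p = 0.00034). Hif1a did not pass (0.02) while Epas1, described above, was higher. P4ha1 was the member that rose (0.23).

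Of 24 sterol synthesis genes 1 was higher and 3 lower (median -0.08; 4.17% and 12.5% against 11.9% and 16.7%; 0 and 4 without NFAT2-CA replicate 3): Dhcr7 (-0.37), Lss (-0.34) and Nsdhl (-0.19) fell. The Nsdhl call was lost without NFAT2-CA replicate 1 (adjusted p = 0.11) or 2, or without NFAT2-CARIT replicate 2 or 3. The 1 rise, Cyp51 (0.17 ± 0.06, adjusted p = 0.034), was not called without NFAT2-CA replicate 2 or 3 or without any one of the NFAT2-CARIT libraries. Of 24 oxidative phosphorylation genes 2 were higher and 1 lower (median 0.01; 8.33% and 4.17% against 11.9% and 16.7%; 1 and 1 without NFAT2-CA replicate 3), led by Cox5b (3.94 to 4.05 CPM for NFAT2-CA, 6.22 to 6.62 CPM for NFAT2-CARIT; 0.57); the calls of Cycs (0.31 ± 0.11, adjusted p = 0.038) and Sdha (-0.18 ± 0.06, adjusted p = 0.026) were close to the threshold. Cycs lost its call without any one of the 6 NFAT2 libraries, and Sdha without NFAT2-CA replicate 1 or 2 or NFAT2-CARIT replicate 1 or 2. Amino acid stress genes had 4 higher and 6 lower of 22 (median 0.02; 18.2% and 27.3% against 11.9% and 16.7%; 4 and 6 without NFAT2-CA replicate 3). Slc3a2, the heavy chain of amino acid exchangers, rose from 271, 269.6 and 242 to 415, 389.7 and 377 CPM (log2 fold change 0.59 ± 0.06, adjusted p = 2e-06), and Stc2 (25 to 26.2 CPM for NFAT2-CA, 13.6 to 15.6 CPM for NFAT2-CARIT; -0.77), Cebpb (-0.68) and Vldlr (-0.56) fell. Atf4, which drives this response, did not pass (-0.02).

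Cell cycle genes were mostly higher. With NFAT2-CARIT 23 of 36 tested rose (63.9%, against 11.9% of all tested genes) and 0 fell in the limma test, with a median log2 fold change of 0.26. At an unadjusted p under 0.05, 27 were higher and 0 lower, and the authors' deposited table called 2 higher and 0 lower. Without NFAT2-CA replicate 3, 17 rose and 0 fell. Cdc6, which licenses replication origins, rose from 4.16, 3.56 and 2.74 to 6.99, 7.96 and 7.42 CPM (log2 fold change 0.92 ± 0.14, adjusted p = 0.00012) and Mcm5, a subunit of the replicative helicase (chr8:75109569-75128439, plus strand), from 50.2, 52.2 and 45.7 to 76.7, 71.1 and 69.1 CPM (log2 fold change 0.54 ± 0.07, adjusted p = 2.7e-05). Rrm2, which supplies deoxynucleotides, rose from between 23.2 and 30.6 to between 36.8 and 39.4 CPM (log2 fold change 0.53 ± 0.10, adjusted p = 0.001) and the repressor E2f8 by 0.52 ± 0.10. The mitotic genes Kif11 (0.41), Top2a (0.28) and Nusap1 (0.33) rose by less. Control was lower than both NFAT2 groups for Cdc6 (1.7 to 2 CPM), Mcm5 (15.2 to 16.2 CPM) and E2f8 (2.54 to 3.46 CPM). Mki67 (0.17), Pcna (-0.03), Ccnb1 (0.20) and E2f1 (-0.22) did not pass.

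**Figure D5:**
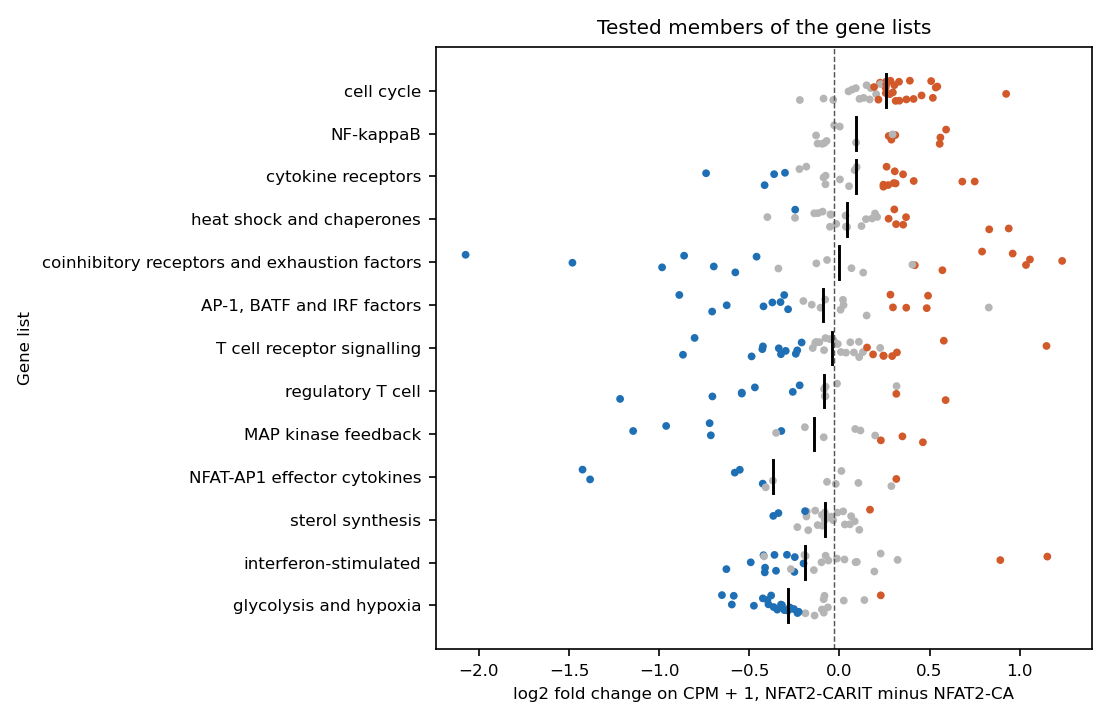
log2 fold change on CPM + 1 (NFAT2-CARIT minus NFAT2-CA) of every tested member of 13 gene lists. Each point is a gene, orange where it passed the test and was higher, blue where it passed and was lower, grey where it did not pass. Black bars are list medians and the dashed line is the median of all tested genes, -0.03. The cell cycle members lie mostly to the right (median 0.26) and the glycolysis and hypoxia members mostly to the left (median -0.29), while coinhibitory genes spread to both sides.

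Of 28 interferon-stimulated genes tested 2 were higher and 11 lower (median -0.19; 7.14% and 39.3% against 11.9% and 16.7%; 2 and 9 without NFAT2-CA replicate 3). Interferon-inducible GTPases were among the falls, with Gbp2 from 350.4, 343 and 317 to 254, 235 and 228 CPM (log2 fold change -0.49 ± 0.06, adjusted p = 1.6e-05), Igtp (-0.42) and Irgm2 (-0.41), together with Oas3 (-0.41). Isg20, an exonuclease, rose from 7.81, 10.1 and 10.1 to 21.7, 22.7 and 21 CPM (log2 fold change 1.15 ± 0.10, adjusted p = 3.9e-07) and Rsad2 (viperin) from 8.33, 8 and 8.94 to 16.9, 15.5 and 17 CPM (log2 fold change 0.89 ± 0.13, adjusted p = 8.5e-05). Isg15 (0.32), Irf7 (0.10) and Ifit1 (0.09) did not pass. Members of the GTPase and Ifi200 families have close copies, so reads may have been split between them.

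Of 15 NF-kappaB genes 6 were higher and 0 lower in the limma test (median 0.09; 40% and 0% against 11.9% and 16.7%; 6 and 0 without NFAT2-CA replicate 3), and without Control replicate 3, 1 was lower. At an unadjusted p under 0.05, 7 were higher and 0 lower, and the authors' deposited table called 3 higher and 0 lower. The subunit Rel rose from 63.4, 61.4 and 71.2 to 88.4, 96.1 and 113 CPM (log2 fold change 0.59 ± 0.09, adjusted p = 0.00022). The inhibitors Tnfaip3 (A20), from 408, 416 and 446 to 617, 622 and 633 CPM (log2 fold change 0.56 ± 0.07, adjusted p = 1.4e-05), and Nfkbia, from between 135 and 144 to between 202 and 205 CPM (log2 fold change 0.56 ± 0.09, adjusted p = 0.00022), rose as well. Nfkb2 (0.31) and Relb (0.27) rose by less. Rela (-0.07) and Nfkb1 (-0.12) did not pass.

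Chaperone genes had 7 higher and 1 lower of 25 tested (median 0.04; 28% and 4% against 11.9% and 16.7%; 7 and 1 without NFAT2-CA replicate 3), with 2 lower without Control replicate 2, Control replicate 3 or NFAT2-CA replicate 2. Hspb1, a small heat shock protein, was listed at 0 in the 3 Control libraries and rose from 4.29, 4.66 and 4.67 to 12.2, 9.76 and 7.43 CPM (log2 fold change 0.94 ± 0.15, adjusted p = 0.00029). Hspa4l, a nucleotide exchange factor for HSP70, rose from 364, 327 and 356 to 606, 628 and 629.5 CPM (log2 fold change 0.83 ± 0.09, adjusted p = 4.9e-06), and Hsp90aa1 (0.37), Hsph1 (0.35) and Hspd1 (0.30) by less.

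Apoptosis genes had 7 higher and 5 lower of 28 tested (median 0.09; 25% and 17.9% against 11.9% and 16.7%; 7 and 5 without NFAT2-CA replicate 3). The inflammatory caspases Casp4, from 43.4, 39.9 and 39.1 to 21, 21.7 and 19 CPM (log2 fold change -0.96 ± 0.09, adjusted p = 9.5e-07), and Casp1 (-0.39) fell. Cdkn1a, the cyclin-dependent kinase inhibitor p21, rose from 76.8, 70.2 and 70.0 to 112, 106 and 112 CPM (log2 fold change 0.60 ± 0.07, adjusted p = 8.3e-06), and the inhibitor of apoptosis Birc2 from between 163 and 177 to between 232 and 267 CPM (log2 fold change 0.56 ± 0.07, adjusted p = 2.1e-05). The BH3-only genes Bbc3 (0.40), Bmf (0.37) and Bcl2l11 (0.29) rose. Mcl1 (-0.03) and Bcl2l1 (0.21) did not pass.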

How the data were processed

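Per the labels' protocols, RNA was purified on columns from transduced primary CD4+ T cells of mice and read from both ends; 3 libraries each held the control vector, NFAT2-CA and NFAT2-CARIT. The authors deposited CPM values for 16500 genes. A check of the file showed that every library reaches the same total and that 1e-04 had been added to each value. A second deposited table gives the authors' own comparisons, with p-values, step-up FDR values, ratios of group means and log2 ratios per the file headers. DESeq2, Partek 10 and mm10 are named in the submitters' processing notes. Whether the authors tested reads or CPM, how reads were aligned and counted, and with which annotation and strand setting, is not given in the sources. Assignment of reads between overlapping, antisense or near-identical genes is therefore uncertain. Start and end matched GENCODE M21 (GRCm38) for 15961 genes of the same name (96.7%), where the deposited end was 1 base higher; ends are printed less 1. Mitochondrial genes are not listed.

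Most low values were multiples of one step in each library, from which depth was derived. On that scale 81.3% to 84.4% of values up to 1 CPM came within 0.1 of a whole read. This was too few to recover counts, and no count test was run. Replicates varied by more than counting noise, with a median chi-square per gene of 1.29 to 3.18, and no library was a copy of another.

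The limma test (version 3.58.1, R 4.3.3) used log2(CPM + 1) for the 13090 genes that reached 1 CPM in at least 3 libraries. It fitted the 3 group means to the 9 libraries together, moderated variances with the trend and robust options, and adjusted p over all tested genes by Benjamini-Hochberg; a gene was called at an adjusted p under 0.05. The fit was also run on simulated data with independent normal noise, which does not show how it handles an outlying library. TMM factors came from code written for this purpose. Files were read and figures drawn in Python 3.11.15 (NumPy 2.4.6, pandas 2.3.3, matplotlib 3.10.9). Promoters came from RefSeq on GRCm38.p6.

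The naming rule took 26 readout genes whatever their result and up to 4 called members of each list by size of change. It also took, by size, 12 rises and 12 falls among called genes whose libraries did not overlap and whose higher group reached 20 CPM, without gene models, olfactory receptors and receptor segments. A few genes that the rule takes are not reported here. Other quoted list members, Malat1, Neat1, Kcnq1ot1, Actb, the promoters and the genes of the closing section were chosen with values in view; the list members among these that are quoted as moved kept their call in every alternative that tested them. The comparison, its lists and its readout genes were chosen with earlier results of these data known. Tried as alternatives were a pseudocount of 0.5 or 5, a filter of 10 CPM or none, TMM or quantile scaling, a fit to the 6 NFAT2 libraries, a block for replicate number, array weights, dropping the trend or robust option, and leaving out each library in turn.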

Additional observations from a re-analysis of the deposited data

How the results depend on the processing

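The count of 3745 called genes lay within 1.5 times of its value in all alternatives run, from 2763 to 4215 when 1 library was left out and from 3142 to 5289 otherwise. Leaving out 1 library gave 1111 to 1799 higher and 1652 to 2416 lower genes, and 202 to 223 genes changed at least 2-fold. The count of 220 genes changed at least 2-fold was 82 with a pseudocount of 5 and 116 with a filter of 10 CPM, which tests 9233 genes; both act on genes of low level by construction. It was 300 with a pseudocount of 0.5. Of the called genes 41.5% were higher, and quantile normalization made this 50.8%, with the median of all genes at 0.006 in place of -0.03, while TMM factors made it 46.3%. Whether replicate numbers pair the samples could not be decided. The same-numbered NFAT2-CA and NFAT2-CARIT libraries had correlations of their deviations across genes of 0.073, 0.092 and 0.26. Differently numbered libraries had correlations from -0.28 to 0.233. The deviations were taken from group means of 3 libraries and so depend on each other. With a replicate block the fit called 3544 genes, 1455 higher and 2089 lower, 220 of them at least 2-fold. Of 157 called genes among the 169 named and tested, 147 were called with the same sign in all 19 alternatives that tested them, 10 lost the call in at least 1 (Stat6, Il18r1, Nsdhl, Cyp51, Cycs, Sdha, Cd3d, Cd5, Itgam and H2-Eb1) and 0 changed sign. The other list members quoted as called were those that kept the call throughout, and of 28 quoted as not called 12 passed in at least 1 alternative and 6, all within 0.1 of 0, changed sign in at least 1. Log2 fold changes that changed sign were all of genes not called: Tnf, 0.01 with all libraries, was -0.09 with array weights and -0.04 to 0.11 when 1 library was left out. Egr2 was 0.02 with quantile normalization and -0.16 to 0.01 when 1 library was left out. Malat1 was 0.02 with quantile normalization, 0.18 with array weights and -0.4 to 0.53 when 1 library was left out, with the highest value, and a call (limma, adjusted p = 0.016), in the absence of NFAT2-CA replicate 3. Leaving out 1 library gave -0.72 to 0.23 for Neat1 and -0.65 to 0.4 for Kcnq1ot1, with both highest values in the absence of that same library. The cause was not tested. Depth limits genes under about 1 CPM, where 19.9 to 38.2 reads make 1 CPM.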

Other observations

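These further genes were chosen with their values in view, so they describe the libraries and support nothing further. Abcb4, a phospholipid transporter of the ABC family (chr5:8893717-8959231, plus strand), measured 15.4, 16 and 16.4 CPM in the NFAT2-CA libraries and 0.236, 0.11 and 0.301 CPM in the NFAT2-CARIT libraries, with 0.17, 0.252 and 0.25 CPM in Control (limma, log2 fold change -3.80 ± 0.14, adjusted p = 3.5e-11). Its NFAT2-CARIT and Control libraries overlapped, and it passed the level filter only through NFAT2-CA. Bmp2, a secreted growth factor near 0 in Control (0 to 0.126 CPM), fell from 36.8, 36.9 and 38.9 to 17.9, 18.1 and 15.8 CPM (-1.08). The Hedgehog receptor gene Ptch1 fell along with Smo, from 155, 154 and 172 to 87.1, 90.6 and 85.9 CPM (log2 fold change -0.86 ± 0.11, adjusted p = 6.4e-05), although it remained above Control (30.2 to 42.2 CPM) while Smo was below. Tpp1, a lysosomal peptidase, fell from 356, 342 and 329 to 132, 136 and 138 CPM (log2 fold change -1.33 ± 0.06, adjusted p = 3e-10), in the same libraries as Gnptab, whose enzyme tags lysosomal proteins. The prostaglandin E2 receptor gene Ptger2 fell from 60.2, 60.5 and 60.7 to 23.3, 22.3 and 22.6 CPM (-1.37) and Slamf7, of the SLAM receptor family, from 90.3, 87.3 and 88.3 to 38.8, 37.1 and 39.6 CPM (-1.18). In mitochondria the calcium uniporter Mcu fell from between 22.1 and 26.7 to between 10.2 and 13.4 CPM (-1.0) and the glycerol phosphate dehydrogenase Gpd2 from between 68.6 and 75.6 to between 36.9 and 40.3 CPM (-0.88), while most oxidative phosphorylation genes of the list did not pass.

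On the other side, Arg1, the arginine-degrading enzyme, was at most 0.0417 CPM in Control, 4.02, 4.15 and 3.79 CPM with NFAT2-CA, and rose to 15, 13.3 and 15.9 CPM with NFAT2-CARIT (limma, log2 fold change 1.66 ± 0.12, adjusted p = 7.9e-08). The iron carrier Trf rose from 3.57, 4.23 and 3.08 to 14.8, 12.1 and 10.5 CPM (log2 fold change 1.54 ± 0.16, adjusted p = 2.3e-06) and the purine-degrading enzyme Xdh from between 26.2 and 29.7 to between 48.7 and 52.8 CPM (0.82), where NFAT2-CA overlapped Control (26.3 to 30.9 CPM). Pcyt1a, the rate-limiting enzyme of phosphatidylcholine synthesis, rose from between 27.6 and 32.2 to between 57.2 and 61.3 CPM (0.94), beside the rise of Dgat1 in triglyceride synthesis. The centromeric histone gene Cenpa rose from 226, 217 and 221 to 417, 404 and 442 CPM (0.92), further than the mitotic genes of the cell cycle list. Among gene models, which the naming rule left out, Gm2663 (chr6:40995830-40999479, minus strand) measured 0.127, 0 and 0.0943 CPM in Control, 20.8, 19 and 21 CPM in the NFAT2-CA libraries and 144, 128 and 115 CPM in those with NFAT2-CARIT (limma, log2 fold change 2.61 ± 0.10, adjusted p = 5.2e-11). Its neighbour 1810009J06Rik (chr6:40964754-40968435, plus strand) measured 10.4, 7.77 and 8.13 and 34.9, 28.5 and 22.1 CPM with NFAT2-CA and NFAT2-CARIT (log2 fold change 1.58 ± 0.15, adjusted p = 1.3e-06). How strand and near-identical genes were handled is not stated in the labels or headers, and the assignment of these reads is uncertain.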
